A study of Mus musculus with 9 samples.

Results

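Genes of glycolysis and of the hypoxia response were followed in whole stomachs of newborn mice, in 5 mice with a knockout of C/EBPβ (KO 1 to KO 5) and 4 wild-type mice (WT 1 to WT 4). C/EBPβ is a transcription factor of the basic leucine zipper class, and Cebpb is its gene. Each mouse gave total RNA for 1 Agilent array read in 1 colour (Cy3). The set holds 36 genes taken by name: glucose carriers, glycolytic enzymes and their regulators, the α subunits of the hypoxia-inducible factors (HIF) with the enzymes that hydroxylate them, and genes that HIF is known to induce. All 36 are on the array. Of these, 35 stood well above background on all 9 arrays, where 4 were required, and were tested among 21723 genes. The remaining one, Mxi1, which encodes an antagonist of Myc, did so on 0 of the 9. The mice were killed at birth, although the source field of the labels calls them old. The strain, the deleted part of the gene and whether the deletion is present in all cells are not given in the sources used here.

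Glycolysis turns glucose into pyruvate in the cytosol and yields ATP without oxygen. HIF is a pair of an α subunit and ARNT. When oxygen is plentiful, prolyl hydroxylases mark the α subunit for destruction through the von Hippel-Lindau protein. When oxygen is scarce the subunit persists, enters the nucleus and induces many glycolytic genes together with genes of blood vessel growth and pH control. That control acts mostly on the protein, whereas the arrays measured mRNA.

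No glycolysis or hypoxia gene passed the test for a difference between knockout and wild-type stomachs. By limma with Benjamini-Hochberg adjustment over all genes, 0 of the 35 had an adjusted p below 0.05, where 45 of all 21723 genes did (0.207%; 0.129% higher and 0.0783% lower in the knockout). At an unadjusted p below 0.05, 1 of the 35 stood out, Car9, a carbonic anhydrase that sits on the cell surface and is among the genes most readily induced by HIF, and it was higher in the knockout. The share of all genes below that unadjusted p was 8.84% (5.4% higher and 3.45% lower). In 1 of the 35, Gapdh, the knockout and wild-type arrays did not overlap, with every knockout array lower, where 3.4% of all genes had groups that did not overlap (2.43% higher and 0.971% lower). In all, 17 of the 35 genes were higher and 18 lower in the knockout. The median difference was −0.012 on the log2 scale, beside 0.017 over all genes. Without regard to sign, the median difference was 0.15, beside 0.18 over all genes. In bulk tissue, fewer cells of a type and less RNA per cell cannot be told apart.

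The size of difference that these arrays leave room for can be read from the 95% intervals of the log2 differences, taken gene by gene from limma. For 31 of the 35 genes (88.6%) the interval lay inside a 2-fold change in either direction, and for 17 (48.6%) inside a 1.5-fold change. Over all genes these shares were 74.1% and 32.3%. The exceptions at 2-fold were Car9, Adm, Hif3a and Ankrd37, described below with their values. The spread within a group was a median SD of 0.29 for the 35 genes and 0.35 for all genes.

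**Figure D1:**
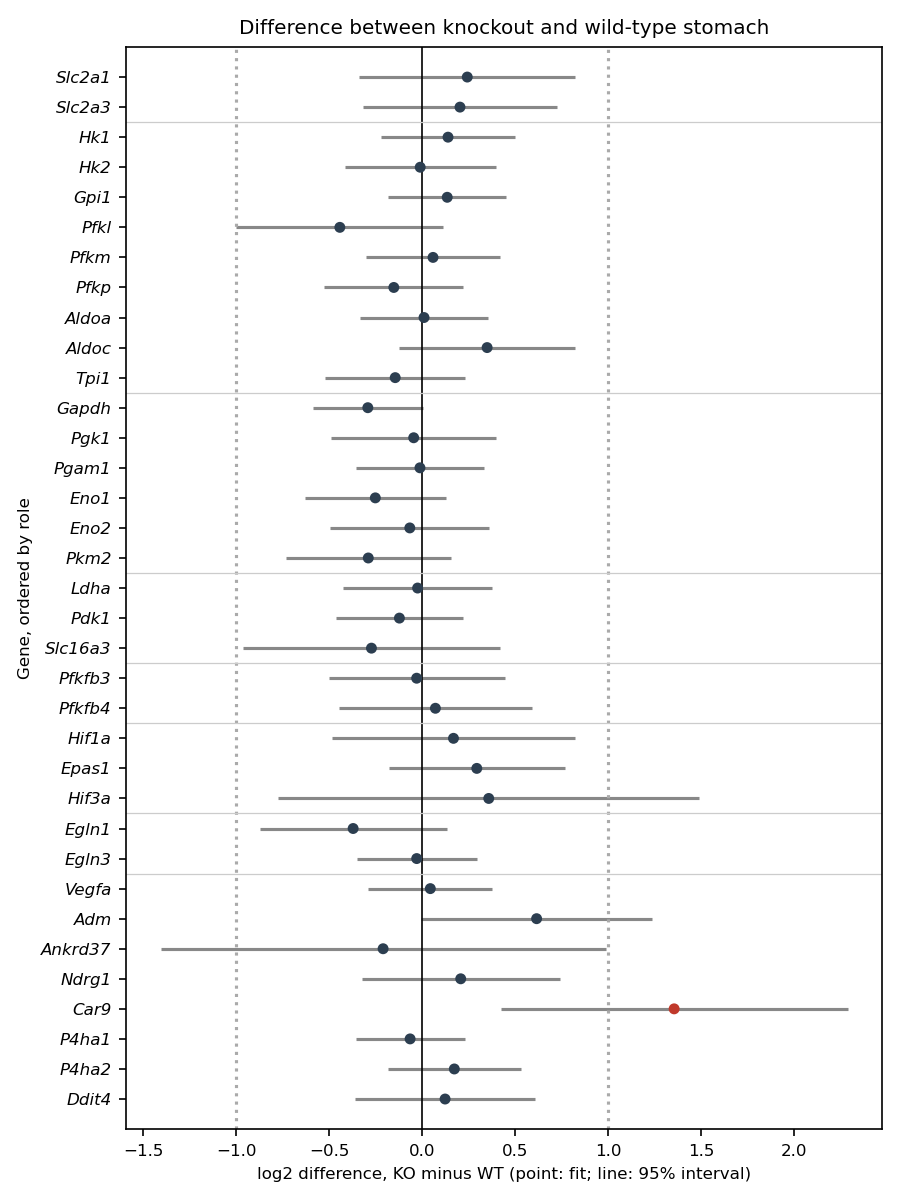
Difference between knockout and wild-type stomachs for each of the 35 genes (x axis, log2, KO minus WT; y axis, genes ordered by role, grey rules between roles). Points are fitted differences and lines their 95% intervals, dotted lines mark 2-fold, and red marks the 1 gene with an unadjusted p below 0.05. The interval of Car9 lies wholly above 0, and the other 34 include 0.

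The label of the knockout was checked first. Cebpb had levels of −2.54, −2.65, −1.37, −1.81 and −1.46 on KO 1 to KO 5, against 3.94, 3.42, 3.47 and 3.19 on WT 1 to WT 4, a difference of −5.47 ± 0.30 (log2, SE; limma adjusted p = 0.000131), or 2.26% of wild type. A level here is the log2 processed signal less the 75th percentile of its array, so 0 is the signal of the probe at that percentile and a difference of 1 is 2-fold. Levels of different genes come from different probes and are not set against each other. The processed signal at the 75th percentile was between 194.9 and 408.5. Defining markers of stomach were present: the 6 gastric pit, 6 parietal and 10 squamous differentiation markers were all well above background on all arrays. Relative to the wild-type mean, the mean pit marker level was 0.87 to 1.58 on the knockout arrays and −0.29 to 0.73 on the wild-type arrays, and the mean squamous differentiation level was −2.04 to 0.077 on the knockout arrays and −2.29 to 0.92 on the wild-type arrays, lowest on KO 5 and WT 4. The level of Y-linked genes was −6.86 to −5.16 on KO 2, KO 4 and KO 5 and −1.54 to −0.68 on the other 6 arrays. The arrays lie on 4 slides, of which slide 1 (KO 4, KO 5, WT 3 and WT 4) and slide 4 (KO 2, WT 1 and WT 2) hold both genotypes. On these slides every knockout array has the low Y-linked level and no wild-type array does. Differences within a slide therefore cannot separate genotype from Y-linked level, and those of slide 4 rest on a single knockout array. Without 1 array, the number of genes called fell to 28, 19 and 23 (without KO 2, KO 3 and KO 4) and to 11, 13 and 14 (without WT 1, WT 2 and WT 3), and it was 149 without WT 4.

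Promoter sequence is shown for Car9, Ankrd37 and Slc16a3, the genes for which KO 3 and KO 5 lay below the other 3 knockout arrays by the widest margins, so that the letters HIF recognises can be seen beside the levels given further on. Each line is the 250 bases before the annotated transcription start, 5′ to 3′ on the strand of the gene, from RefSeq on build GRCm38.p6. Capitals mark the letters ACGTG or GCGTG, the core that HIF binds, on either strand, and TTGCNNAA, a C/EBP core that matches none of the 3.
Car9, chr4:43506776-43507025, plus strand: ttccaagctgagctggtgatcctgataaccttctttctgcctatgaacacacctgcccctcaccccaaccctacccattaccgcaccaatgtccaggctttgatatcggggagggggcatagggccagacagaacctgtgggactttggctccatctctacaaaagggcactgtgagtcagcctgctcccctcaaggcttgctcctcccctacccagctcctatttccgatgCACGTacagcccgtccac
Ankrd37, chr8:45999851-46000100, minus strand: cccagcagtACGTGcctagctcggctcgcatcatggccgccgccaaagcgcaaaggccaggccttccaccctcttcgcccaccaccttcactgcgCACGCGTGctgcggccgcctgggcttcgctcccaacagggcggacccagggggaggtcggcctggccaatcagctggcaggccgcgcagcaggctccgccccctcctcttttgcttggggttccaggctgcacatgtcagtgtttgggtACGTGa
Slc16a3, chr11:120948817-120949066, plus strand: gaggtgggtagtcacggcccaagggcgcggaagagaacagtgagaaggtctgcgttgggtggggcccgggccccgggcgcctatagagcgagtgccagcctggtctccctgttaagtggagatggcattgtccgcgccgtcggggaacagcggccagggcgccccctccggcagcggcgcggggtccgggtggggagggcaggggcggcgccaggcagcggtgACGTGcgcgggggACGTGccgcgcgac

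In Car9 the match lies 18 to 14 bases before the start, on the strand opposite to the gene. Slc16a3 has 2 matches to ACGTG, the nearer one 14 to 10 bases before the start. Ankrd37 has 2 matches to ACGTG, the nearer one 6 to 2 bases before the start, and 2 matches to GCGTG that overlap each other on opposite strands. Promoters of 33 of the 36 genes were found by symbol, and those of Slc2a3, Epas1 and Ndrg1 were not used here. With the first promoter listed for each gene, 16 of the 33 held ACGTG and 16 GCGTG, 25 held at least 1 of them (75.8%), and 2, Pfkm and Pkm, held TTGCNNAA (6.06%). Over 26994 genes the shares were 16.6%, 28.2%, 38.6% and 9.56%. The set was chosen in part as genes that HIF is known to induce, so its higher share of the HIF core is no result of these arrays. With 25 of the 33 holding that core, its presence does not set the printed promoters apart. A match in these letters is a description of the window and not a measured binding site.

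The 2 glucose carriers were both higher in the knockout by less than the spread between arrays. Slc2a1, the basal glucose carrier of many tissues and a HIF target, had levels of 3.06, 2.92, 3.48, 3.68 and 3.92 on KO 1 to KO 5, against 3.67, 3.12, 2.66 and 3.23 on WT 1 to WT 4. The groups overlapped over most of their range, and both the highest array, KO 5, and the next, KO 4, were knockouts on slide 1. The difference was 0.24 ± 0.26 over all arrays (log2, SE; limma adjusted p = 0.874), 0.85 within slide 1 and −0.48 within slide 4. It was 0.070 without WT 3 and 0.41 without WT 1. Slc2a3, a high-affinity carrier best known from neurons, differed by 0.20 ± 0.23, with 0.37 on slide 1 and −0.46 on slide 4. Both carriers therefore had opposite signs on the 2 slides that hold both genotypes.

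Among the 9 genes for the steps from glucose to triose phosphate, 5 were higher and 4 lower in the knockout. The number higher was 6 when arrays were scaled to their median and 4 with the mean of a gene's probes. Hexokinases trap glucose in the cell as its phosphate. Hk2, the inducible hexokinase, had levels of 0.68, 0.52, 0.94, 1.06 and 1.11 on KO 1 to KO 5, against 0.90, 0.73, 0.65 and 1.21 on WT 1 to WT 4. The wild-type range nearly covered the knockout range, and the difference was −0.012 ± 0.18 with a 95% interval of −0.42 to 0.39. Hk1, the constitutive hexokinase, differed by 0.14 ± 0.16 by the probe used, which the array design placed away from the gene's chromosome. The other Hk1 probes, placed on the gene's own chromosome, differed by −0.18 and −0.35. Gpi1, which converts glucose 6-phosphate to fructose 6-phosphate, had levels of 6.92, 7.29, 6.93, 6.92 and 6.92 on KO 1 to KO 5, against 6.85, 6.93, 6.69 and 6.98 on WT 1 to WT 4. A single array, KO 2, lay above the rest, the other 4 knockout arrays lay at 6.92 or 6.93, and the difference was 0.13 ± 0.14.

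Phosphofructokinase commits sugar to glycolysis and is built from liver, muscle and platelet type subunits. Pfkl, the liver type, had levels of 1.91, 2.19, 1.79, 2.53 and 1.63 on KO 1 to KO 5, against 2.50, 2.99, 2.41 and 1.92 on WT 1 to WT 4. It had the most negative difference of the 35 genes, −0.44 ± 0.25 (limma adjusted p = 0.680), with groups that overlapped through KO 2, KO 4 and WT 4. The difference was −0.08 within slide 1 and −0.56 within slide 4, and it was −0.62 without WT 4 and −0.26 without WT 2. Pfkm, the muscle type, had levels of 2.38, 2.56, 2.15, 2.48 and 2.38 on KO 1 to KO 5, against 2.45, 2.48, 2.45 and 1.95 on WT 1 to WT 4, with WT 4 lowest of all and a difference of 0.057 ± 0.16. Pfkp, the platelet type, differed by −0.15 ± 0.17. The subunits had differences of both signs, and the 95% interval of each included 0.

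Aldolase splits the sugar into 2 triose phosphates, and triosephosphate isomerase interconverts them. Aldoc, the aldolase of brain, had levels of 3.18, 3.19, 3.30, 3.35 and 3.90 on KO 1 to KO 5, against 3.37, 3.20, 3.00 and 2.57 on WT 1 to WT 4. Its highest array was KO 5 and its lowest WT 4, and these lie on 1 slide, where the difference was 0.84, against −0.10 on slide 4. Over all arrays it was 0.35 ± 0.21 (limma adjusted p = 0.723). Aldoa, the main aldolase of most tissues, differed by 0.0087 ± 0.16 with an interval of −0.34 to 0.35, the smallest difference of the 35. Tpi1 differed by −0.15 ± 0.17.

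From glyceraldehyde 3-phosphate to pyruvate, all 6 genes were lower in the knockout under the scaling used, though 2 of them, Pgk1 and Pgam1, were higher when arrays were scaled to their median and Pgam1 was higher with another background correction. Gapdh makes the first of these steps. It had levels of 8.36, 8.50, 8.31, 8.45 and 8.52 on KO 1 to KO 5, against 8.68, 8.92, 8.71 and 8.56 on WT 1 to WT 4. Every knockout array lay below every wild-type array, with KO 5 and WT 4 closest to each other. The difference was −0.29 ± 0.13, or 1.23-fold lower (limma's adjusted p = 0.573). Gapdh was lower in the knockout on both slides that hold both genotypes, with differences of −0.15 on slide 1 and −0.30 on slide 4, and under all 22 alternative settings (−0.41 to −0.20).

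Gapdh was read by 8 probes, and all 8 were lower in the knockout, with differences of −0.42 to −0.10. They read the same RNA and are not independent. Gapdh has many near-identical copies in the genome, and the array design placed the probe used on chromosome 7 of mm9 whereas the gene lies on chromosome 6, so which copy contributes to the signal is uncertain. The design also placed the probes used for Eno1, Hk1 and Pgk1 away from their gene's chromosome. All 8 smooth muscle markers were well above background on all arrays, and their summed linear level was 782 to 1172 on the knockout arrays and 1142 to 1705 on the wild-type arrays. Their part in the difference of Gapdh was not tested.

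**Figure D2:**
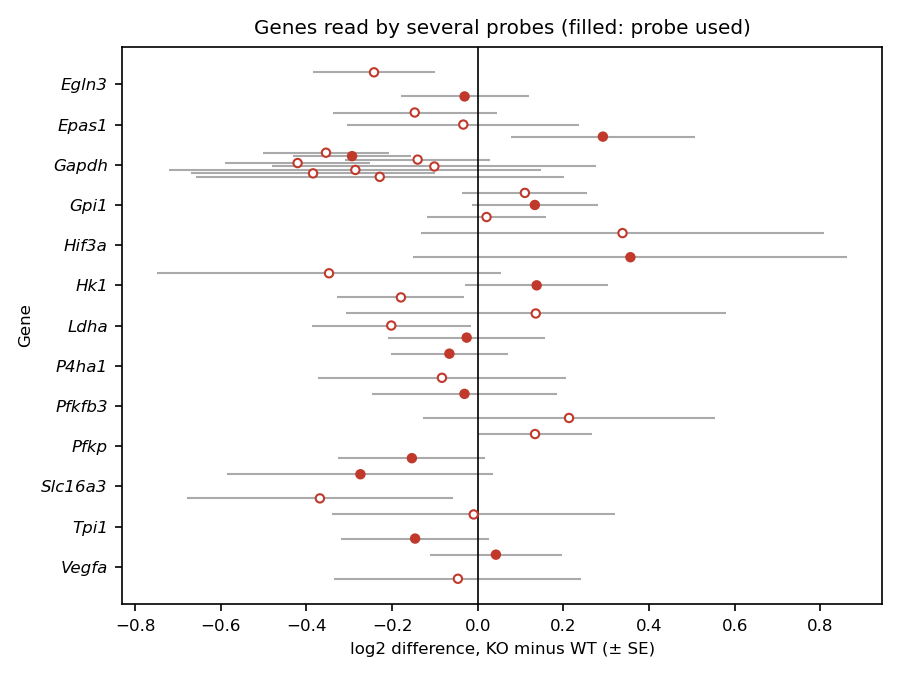
Differences read by every kept probe of the 13 genes that have more than 1 (x axis, log2, KO minus WT, with lines of ± SE; y axis, genes). Filled points are the probes used. The 8 Gapdh probes all lie below 0, and for 6 genes (Epas1, Hk1, Ldha, Pfkfb3, Pfkp and Vegfa) the probes lie on both sides of 0.

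Pgk1, which makes the first ATP of the pathway and is a standard HIF target, had levels of 5.36, 5.63, 5.46, 5.48 and 5.46 on KO 1 to KO 5, against 5.70, 5.84, 5.67 and 4.89 on WT 1 to WT 4. Without WT 4 the knockout arrays would all lie below the wild-type ones: WT 4 was the lowest of the 9 and WT 1 to WT 3 were the 3 highest. The difference was −0.047 ± 0.20 over all arrays and −0.26 without WT 4. Eno1, the enolase of most tissues, differed by −0.25 ± 0.17 and Pkm2, the name the array gives to the pyruvate kinase gene Pkm, by −0.29 ± 0.20 (limma adjusted p = 0.756 and 0.762). Both were lower on both slides, and without WT 2 the differences were −0.15 for Eno1 and −0.17 for Pkm2. Pgam1, a phosphoglycerate mutase, differed by −0.013 ± 0.15 and Eno2, the neuronal enolase, by −0.068 ± 0.19. The mean level of the 6 genes relative to wild type was −0.095, −0.015, −0.28, −0.12 and −0.29 on KO 1 to KO 5, against 0.049, 0.18, 0.073 and −0.30 on WT 1 to WT 4. WT 4 lay below all 5 knockout arrays by this mean and the other 3 wild-type arrays lay above them.

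The 3 genes that decide what becomes of pyruvate and lactate were all slightly lower in the knockout, of which Ldha was higher when arrays were scaled to their median and with another background correction. Ldha, which turns pyruvate into lactate, had levels of 7.63, 7.74, 7.38, 7.43 and 7.20 on KO 1 to KO 5, against 7.61, 7.81, 7.46 and 7.14 on WT 1 to WT 4. KO 1 and KO 2 lay with the higher wild-type arrays and KO 5 with WT 4, and the difference was −0.026 ± 0.18 with an interval of −0.43 to 0.37. Pdk1, a kinase that shuts pyruvate out of the mitochondrial dehydrogenase, differed by −0.12 ± 0.15. Slc16a3, the carrier that exports lactate, had levels of 1.61, 1.49, 0.51, 1.72 and 0.53 on KO 1 to KO 5, against 1.42, 1.86, 1.52 and 0.98 on WT 1 to WT 4. KO 3 and KO 5 lay below all other arrays, while KO 1, KO 2 and KO 4 lay inside the wild-type range. The difference was −0.27 ± 0.31 (limma adjusted p = 0.881), and −0.11 without KO 3. Of the bifunctional enzymes that set fructose 2,6-bisphosphate, an activator of phosphofructokinase, Pfkfb3 had levels of 0.65, 0.55, 0.60, 0.69 and −0.25 on KO 1 to KO 5, against 0.62, 0.63, 0.32 and 0.34 on WT 1 to WT 4. KO 5 was the lowest array and the other 4 knockout arrays lay in or above the upper part of the wild-type range. The differences were −0.031 ± 0.21 for Pfkfb3 and 0.07 ± 0.23 for Pfkfb4.

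**Figure D3:**
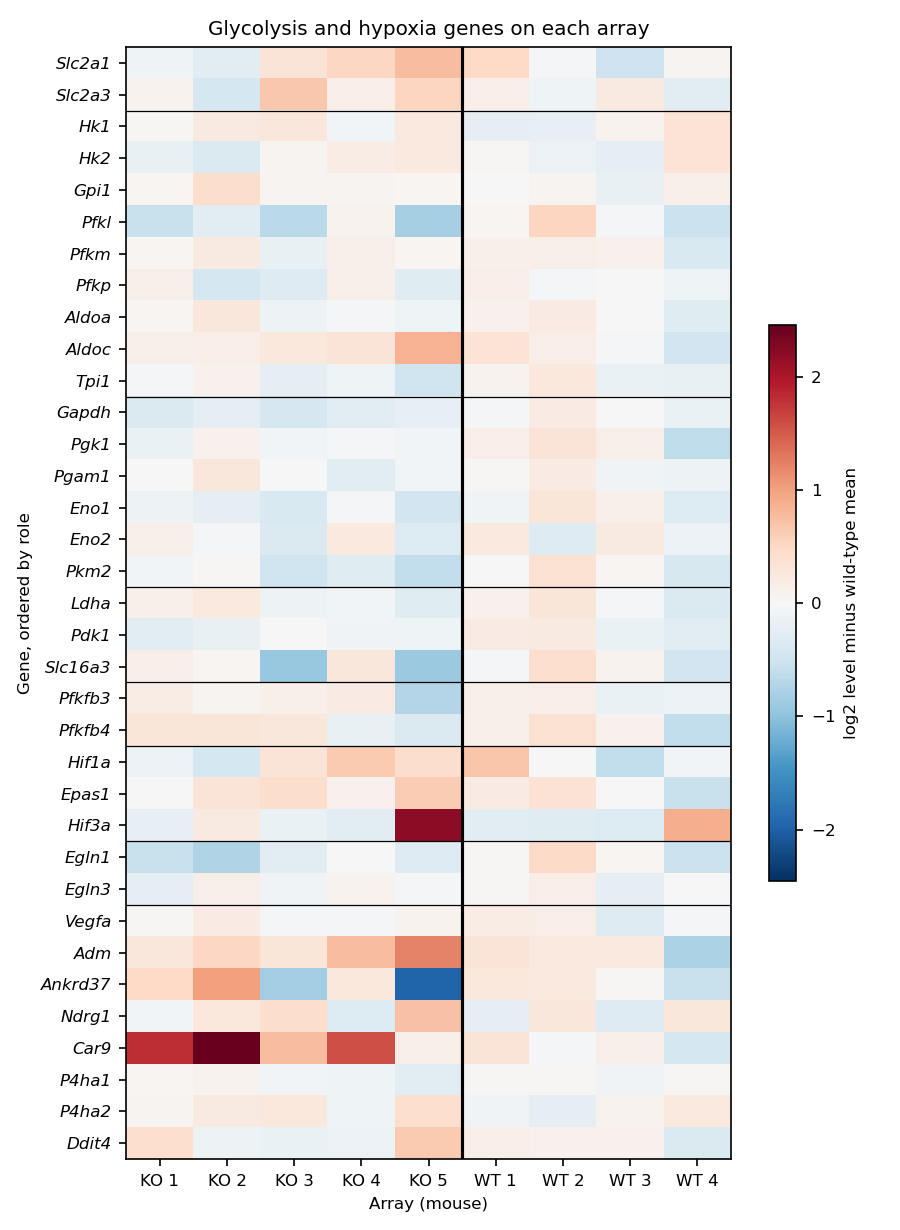
Levels of the 35 genes (rows, ordered by role) on the 9 arrays (columns, knockout at the left), each relative to the wild-type mean of that gene (colour, log2; red higher, blue lower). Most cells are pale. The stronger colours include Hif3a and Adm on KO 5, Car9 on KO 1, KO 2 and KO 4, Ankrd37 on KO 5, and Slc16a3 on KO 3 and KO 5.

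All 3 HIF α subunit genes were higher in the knockout under each scaling run, and 0 of the 3 passed limma's test, at an unadjusted p below 0.05 either. The shared direction did not hold under every alternative. The number higher was 2 of the 3 without KO 5 or without WT 3, and 1 with the level of Y-linked genes as a covariate. Hif1a, the most widely expressed subunit, had levels of 0.53, 0.26, 1.00, 1.34 and 1.12 on KO 1 to KO 5, against 1.36, 0.69, 0.072 and 0.61 on WT 1 to WT 4. The wild-type arrays held both the highest and the lowest value, and the difference was 0.17 ± 0.29 over all arrays, 0.89 within slide 1 and −0.76 within slide 4. Epas1, which encodes HIF-2α and is best known from endothelium, had levels of 3.50, 3.81, 3.93, 3.62 and 4.12 on KO 1 to KO 5, against 3.71, 3.86, 3.49 and 2.96 on WT 1 to WT 4, with WT 4 the lowest and KO 5 the highest. The difference was 0.29 ± 0.21 (limma adjusted p = 0.782) and 0.11 without WT 4, and the other 2 kept probes of Epas1 were lower in the knockout. The 8 endothelial markers were well above background on all arrays, with a summed linear level of 30.3 to 38.6 on the knockout arrays and 26.4 to 51.3 on the wild-type arrays. That sum was highest on WT 4, where the marker Kdr was also highest (5.36). The mean level of the 8 markers relative to wild type was −0.054 to 0.50 on the knockout arrays and −0.35 to 0.20 on the wild-type arrays. By this mean WT 4 was lowest, as for Epas1. Of the 8 markers, 7 were higher in the knockout. Their part in the difference of Epas1 was not tested.

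Hif3a, whose product can oppose the other subunits, varied more between mice than between genotypes. Its levels were 1.96, 2.38, 1.99, 1.90 and 4.35 on KO 1 to KO 5, against 1.90, 1.85, 1.83 and 3.05 on WT 1 to WT 4. KO 5 and WT 4 stood above the other 7 arrays, which lay between 1.83 and 2.38. The difference was 0.36 ± 0.51 (limma adjusted p = 0.918), and it was −0.10 without KO 5 and 0.65 without WT 4. A second kept probe in the same transcript differed by 0.34. KO 5 and WT 4 are also the arrays with the lowest squamous differentiation markers, −2.04 and −2.29 relative to the wild-type mean, where the other 7 lay between −0.92 and 0.92. The part of those cells in the level of Hif3a was not tested.

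The prolyl hydroxylase genes did not pass the test. Egln1, the main oxygen sensor acting on HIF, differed by −0.37 ± 0.23 (limma adjusted p = 0.717), with 0.091 on slide 1 and −0.99 on slide 4. Egln3, itself strongly induced by HIF in many cells, had levels of 2.90, 3.29, 3.05, 3.22 and 3.09 on KO 1 to KO 5, against 3.17, 3.31, 2.92 and 3.15 on WT 1 to WT 4. The groups covered the same range, and the difference was −0.031 ± 0.14 with an interval of −0.35 to 0.29. Another kept probe in the Egln3 transcript differed by −0.24 ± 0.14.

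Of the 8 tested HIF targets outside glycolysis, 6 were higher in the knockout, also under quantile, median and normexp processing, and 1, Car9, reached an unadjusted p below 0.05. The number higher was 5 with array weights, with the mean of a gene's probes or without WT 3. It was 8 with the level of Y-linked genes as a covariate. Car9 hydrates carbon dioxide at the cell surface and is also made by normal gastric epithelium. Its levels were 0.36, 1.00, −0.70, 0.13 and −1.30 on KO 1 to KO 5, against −1.14, −1.49, −1.31 and −1.88 on WT 1 to WT 4. KO 1 to KO 4 lay above every wild-type array and KO 5 lay among them. The mean was −0.10 ± 0.91 in the knockout and −1.46 ± 0.32 in wild type (SD, n = 5 and 4). The difference was 1.35 ± 0.42, or 2.55-fold, with an interval of 0.42 to 2.29 (limma p = 0.00900, adjusted p = 0.384), and the exact permutation test gave p = 0.0317. The knockout mice were thus spread more widely than the wild-type mice.

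Car9 was higher in the knockout on both slides that hold both genotypes, by 1.01 on slide 1 and 2.31 on slide 4. It was higher under all 22 alternatives, by 1.00 to 1.65, with limma adjusted p-values that went no lower than 0.108. It was read by 1 probe, at chr4:43526518-43526577 on mm9, plus strand, within its transcript from position 1879. The gastric pit markers stood beside it: their mean level was 0.94, 1.58, 1.26, 0.87 and 1.34 above the wild-type mean on KO 1 to KO 5, against −0.21, −0.23, −0.29 and 0.73 on WT 1 to WT 4. All 6 were well above background on all arrays, and their summed linear level was 1991, 2169, 1471, 1380 and 1445 on KO 1 to KO 5, against 1016, 1207, 1037 and 1774 on WT 1 to WT 4. Most of that sum came from Tff1, which differed by 0.091 ± 0.23, and all 6 were higher in the knockout. The part of the pit markers in the difference of Car9 was not tested.

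Adm, which encodes the vasodilator adrenomedullin, had levels of −0.72, −0.48, −0.70, −0.24 and 0.23 on KO 1 to KO 5, against −0.68, −0.77, −0.76 and −1.77 on WT 1 to WT 4. The groups overlapped narrowly, KO 1 and KO 3 lying below WT 1, and WT 4 stood well below the rest. The difference was 0.61 ± 0.28 (limma p = 0.0520, adjusted p = 0.573; exact permutation p = 0.0476), 1.26 within slide 1 and 0.24 within slide 4. It was 0.36 without WT 4, and 0.17 when the level of Y-linked genes was a covariate.

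Ankrd37, a small ankyrin repeat protein gene and a direct HIF target, had levels of 1.25, 1.77, −0.10, 1.02 and −1.20 on KO 1 to KO 5, against 1.02, 1.00, 0.80 and 0.22 on WT 1 to WT 4. KO 2 was the highest and KO 5 the lowest of all arrays, with KO 3 the next lowest, so the 4 wild-type arrays lay inside the knockout range. The mean was 0.55 ± 1.19 in the knockout and 0.76 ± 0.37 in wild type (SD, n = 5 and 4), and the difference was −0.21 ± 0.54. It was −0.60 within slide 1 and 0.75 within slide 4. Without KO 5 it was 0.23 and without KO 2 −0.52, so its sign rests on single mice.

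The other targets differed little. Vegfa, the main growth factor of blood vessels, had levels of 1.64, 1.81, 1.56, 1.55 and 1.69 on KO 1 to KO 5, against 1.79, 1.77, 1.29 and 1.59 on WT 1 to WT 4. The knockout arrays lay inside the wild-type range but for KO 2, and the difference was 0.043 ± 0.15 with an interval of −0.29 to 0.38. Ndrg1, a stress-response gene, differed by 0.21 ± 0.24. Ddit4, an inhibitor of mTOR signalling, had levels of 4.48, 3.94, 3.90, 3.93 and 4.71 on KO 1 to KO 5, against 4.24, 4.17, 4.17 and 3.71 on WT 1 to WT 4, with KO 5 and KO 1 highest, WT 4 lowest and a difference of 0.12 ± 0.22. The collagen prolyl hydroxylase subunit genes had opposite signs, −0.066 ± 0.13 for P4ha1 and 0.17 ± 0.16 for P4ha2. P4ha1 had levels of −1.12, −1.10, −1.25, −1.28 and −1.46 on KO 1 to KO 5, against −1.14, −1.15, −1.25 and −1.15 on WT 1 to WT 4, and the wild-type arrays spanned a narrower range.

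**Figure D4:**
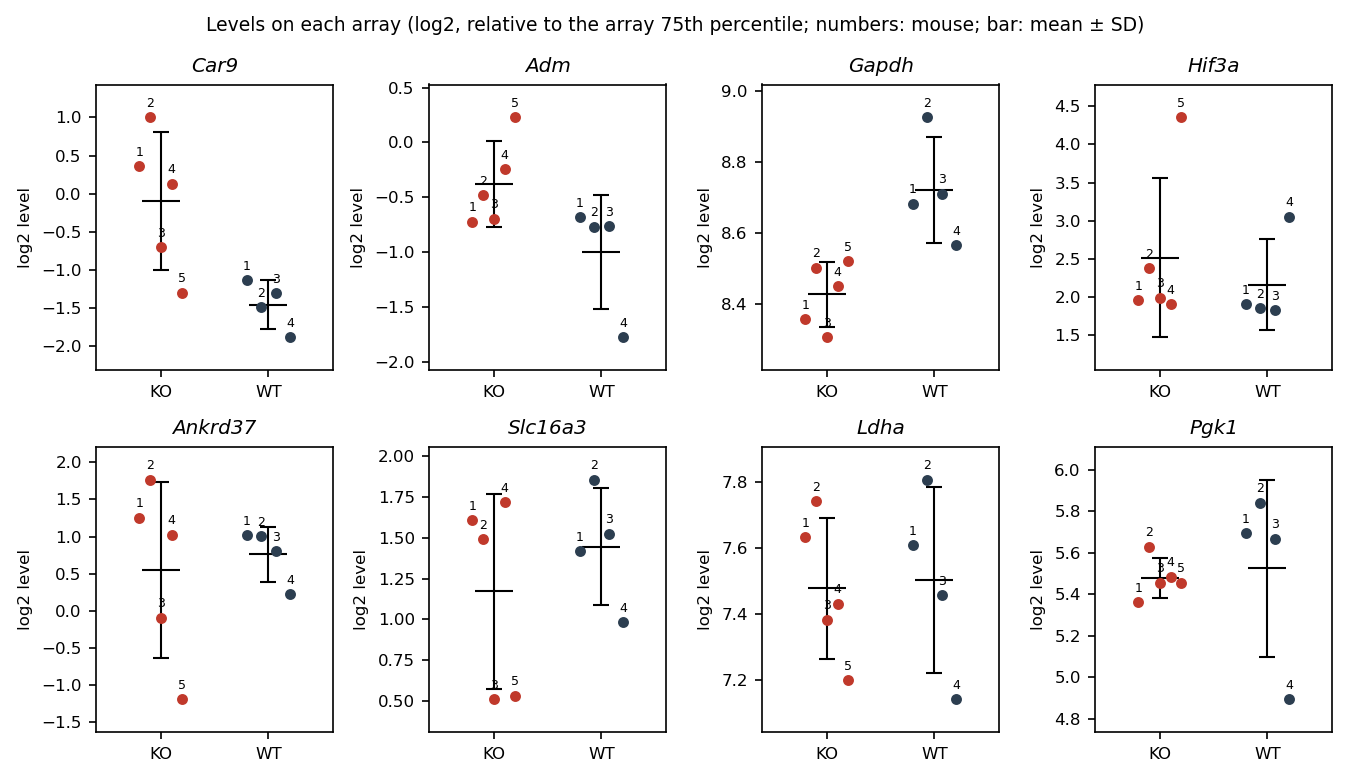
Levels on each array for 8 genes (y axis, log2 relative to the array's 75th percentile, a separate scale in each panel; x axis, genotype), with the number of the mouse beside each point and mean ± SD as bars. Gapdh is the gene whose groups do not overlap, Car9 overlaps through KO 5 alone, Hif3a is high on KO 5 and WT 4, and Ankrd37 and Slc16a3 are low on KO 3 and KO 5.

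Variation among the knockout mice had its own order. KO 3 and KO 5 were the 2 lowest knockout arrays for 11 of the 35 genes (31.4%), where 12.4% of all genes had that pair lowest. These were Pfkl, Pfkm, Aldoa, Tpi1, Eno1, Eno2, Pkm2, Ldha, Slc16a3, Ankrd37 and Car9, which span sugar splitting, pyruvate formation, lactate formation and export, and pH control. KO 1 and KO 2 were the 2 lowest for 7 of the 35 genes, beside 20.9% of all genes, namely Slc2a1, Slc2a3, Hk2, Aldoc, Pdk1, Hif1a and Egln1. The pair was picked after the values were seen, and these genes share the 5 arrays, so the counts are a description. KO 3 and KO 5 lie on different slides, and only KO 5 of them lacked Y-linked signal. The part of slide or Y-linked level in this order was not tested. Among the wild-type arrays, WT 4 was lowest for 22 of the 35 genes and WT 2 highest for 18. The mean deviation of the 35 genes from their group mean was −0.20 on WT 4 and 0.14 on WT 2, and between −0.088 and 0.11 on the other 7 arrays. WT 4 strayed most over all genes as well. Its median absolute deviation was 0.371 over all genes and 0.329 for the 35 genes. Over all genes the other arrays lay between 0.170 and 0.225. How often WT 4 was lowest over all genes is not given.

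Within the slides that hold both genotypes, 11 genes were higher in the knockout on both, 9 were lower on both and 15 had opposite signs. For 18 of the 35 genes the sign was the same on both slides and over all arrays. Car9, Adm, Hif3a and Ndrg1 were among those higher on both, and Gapdh, Pfkl, Eno1, Pkm2 and Slc16a3 among those lower on both. The knockout arrays on these slides, KO 2, KO 4 and KO 5, lacked Y-linked signal and the wild-type arrays did not. The same sign on both slides therefore does not separate genotype from Y-linked level. The same split over all genes is not given.

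Neighbouring pathways gave no call either. Of the further genes listed from them, 101 could be tested and 6 could not (Slc2a2, Pck1, G6pc2, Gys2, Bhlhe41 and Epo), and by limma 0 of the 101 had an adjusted p below 0.05. At an unadjusted p below 0.05, 4 were higher and 5 lower in the knockout, 9 of 101, beside the 8.84% of all genes. In all, 56 were higher and 45 lower, with a median of 0.050. The groups did not overlap for 5 of them, 3 higher and 2 lower, beside the 3.4% of all genes.

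Among the 26 other HIF targets, 13 were higher and 13 lower. Bnip3, which marks mitochondria for removal, had levels of 4.44, 5.02, 4.31, 4.39 and 4.55 on KO 1 to KO 5, against 3.88, 4.15, 3.67 and 3.78 on WT 1 to WT 4, every knockout array being higher, with a difference of 0.67 ± 0.18 (limma adjusted p = 0.297). It was higher by 0.75 on slide 1 and 1.00 on slide 4. Insig2, a sterol sensor of the endoplasmic reticulum, was also higher on every knockout array, by 0.28 ± 0.14. Flt1, which encodes a receptor for the Vegfa product, differed by 0.57 ± 0.23 (limma adjusted p = 0.510). Among the 14 regulators of HIF, 8 were higher and 6 lower, with 0 at an unadjusted p below 0.05, and those with the smallest p were the ubiquitin ligase gene Siah1a (0.64 ± 0.39) and the coactivator gene Ep300 (0.27 ± 0.20).

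Among the 10 genes of pyruvate dehydrogenase and its kinases, 7 were higher and 3 lower. Pdk4, the kinase that responds to fasting, had levels of 1.90, 2.01, 2.61, 1.89 and 2.40 on KO 1 to KO 5, against 1.52, 1.74, 1.15 and 0.89 on WT 1 to WT 4. Every knockout array was higher, and the difference was 0.83 ± 0.23 (limma adjusted p = 0.297). Pdk3 had the opposite sign, −0.75 ± 0.28 (limma adjusted p = 0.480), and with Pdk1 at −0.12 the kinases did not share a direction.

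Among 28 other glycolysis isoenzymes and sugar carriers, 17 were higher and 11 lower. The carrier gene Slc2a10 was lower on every knockout array, with a difference of −0.62 ± 0.18 (limma adjusted p = 0.328), and the fructose carrier gene Slc2a5 differed by 0.54 ± 0.22. Of 10 glycogen genes, 5 were higher and 5 lower. Ppp1r3b, which tethers a phosphatase to glycogen, had levels of 2.29, 2.04, 2.57, 2.57 and 2.74 on KO 1 to KO 5, against 3.21, 2.84, 3.67 and 3.70 on WT 1 to WT 4, with every knockout array lower. Its difference was −0.91 ± 0.22 (limma adjusted p = 0.250), −1.03 on slide 1 and −0.99 on slide 4. Gys1, a glycogen synthase gene, differed by −0.48 ± 0.19 (limma adjusted p = 0.510). The 7 genes of the pentose phosphate pathway had a median of −0.024, with G6pdx at −0.26 ± 0.16 and Tkt at 0.18 ± 0.19. The 6 genes of gluconeogenesis had a median of −0.035, with Fbp1 at −0.17 ± 0.33 and Pcx at 0.087 ± 0.16.

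**Figure D5:**
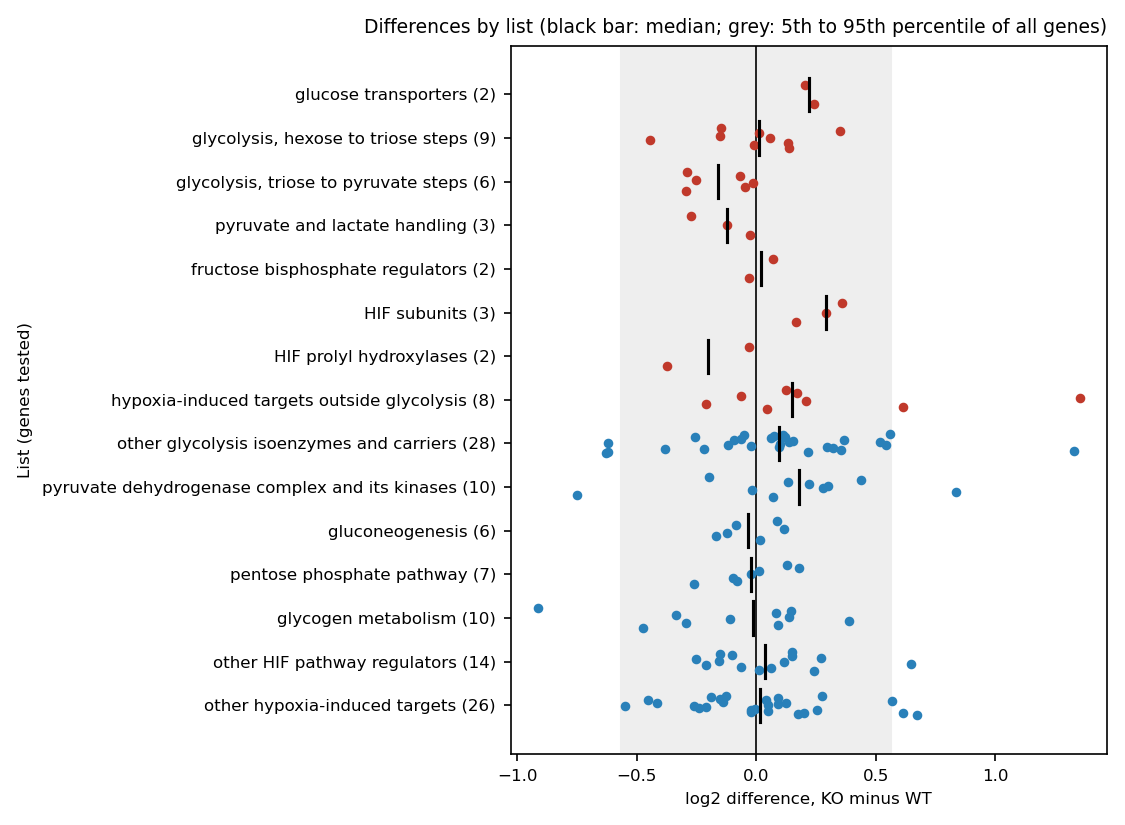
Differences by role for the 35 glycolysis and hypoxia genes (red) and by list for the 101 neighbouring genes (blue), with the number of genes tested in brackets (x axis, log2, KO minus WT; black bars, medians; grey band, the 5th to 95th percentile of all genes, −0.57 to 0.56). All but a few genes lie in the band, Car9 being the point furthest to the right.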

How the data were processed

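Per the file headers, the authors' scanner values are linear intensity per spot, made with Agilent Feature Extraction 10.5.1.1 (background subtracted, no normalization between arrays), on a design annotated on mm9. The submitters' processing notes name version 9.1. Flags of another kind per spot, for signal well above background, saturation and outliers, are deposited with them. The authors also deposited a series matrix in log2, shifted by each array's 75th percentile. Its direction was settled against the scanner values, and its centring per probe is unknown. Its column medians were 0.0436, 0.217, −0.124, 0.0347 and −0.137 in the knockout columns (KO 1 to KO 5) and −0.279, −0.161, 0.224 and 0.381 in the wild-type columns (WT 1 to WT 4).

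Control and outlier spots were left out, and spots of a probe averaged. The log2 processed signal, less its array's 75th percentile, was analysed for probes with signal well above background on 4 or more of 9 arrays, 1 probe per gene (highest mean). Per array, 50.9% to 57.2% of spots were well above background with 0 saturated. Precision is limited by the number of arrays. Through its accession, 26762 probes matched RefSeq names (GRCm38.p6). The 2 genotypes were compared by limma 3.58.1 in R 4.3.3 (lmFit, eBayes, two-sided, no covariate), adjusted over all 21723 genes. SE is limma's moderated standard error. Single genes were also tested by exact permutation over 126 splits. The steps were tested on simulated data.

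The 36 genes and all lists were chosen with earlier results of these data known. Every gene of the set is named, with all array values for 18 of them chosen by unadjusted p, separation of the groups, a stray array or an established role, and for Pfkl, Slc16a3 and Ankrd37 after their values were seen. Of the neighbouring genes, those called, those whose groups do not overlap and the 2 with the smallest p per list are named. The alternatives were scaling, background correction, probe filter, slide, replicate number, Y-linked level, array weights and leaving out arrays.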

Additional observations from a re-analysis of the deposited data

Results flagged for a closer look

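In 9 of the 70 gene groups examined (35 genes, 5 knockout or 4 wild-type arrays), 1 array lay further from the others than Dixon's test allows at 95%. Chance gives about 1 in 20 groups. On the log2 scale relative to the 75th percentile, KO 5 was high for Aldoc (3.90) and Hif3a (4.35) and low for Pfkfb3 (−0.25), and KO 2 was high for Gpi1 (7.29). WT 4 was high for Hif3a (3.05) and low for Pfkm (1.95), Adm (−1.77) and Ddit4 (3.71), and WT 3 was low for P4ha1 (−1.25).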

How the results depend on the processing

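Under all 22 alternatives 0 of the 35 genes were called by limma (1 at an unadjusted p below 0.05 in the main comparison, and 1 to 9 under the alternatives), and the lowest adjusted p was 0.0691, for Pfkl with array weights. The count of 9 also came with array weights, where the calls over all genes rose from 45 to 561. The share of all genes at that unadjusted p is given for the main comparison only. The direction held under every alternative for 18 genes, Car9, Adm, Gapdh and Pfkl among them, and changed for 17 under at least 1, in 75 values in all. All 35 genes were well above background on all 9 arrays. When 1 array at a time was left out, the sign held for 20 genes, of which Car9 and Gapdh stayed within 1.5 times their difference and the other 18 moved by more.

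Over all genes, 45 calls became 25 without a filter on dim probes, 5 with slide as a fixed block, 6 with a covariate for Y-linked signal, 561 with array weights, 11 to 149 without 1 array, and 155 without KO 5 and WT 4 together, an alternative chosen after seeing the data. With array weights 4 neighbouring genes were called, among them Slc2a10 (−0.67), Pdk3 (−1.08) and Flt1 (0.81). The deviations of same-numbered mice had correlations of both signs (r = −0.305, 0.122, 0.153 and −0.482). With so few pairs of arrays these values cannot decide whether the numbers pair the mice. With the replicate block, which in effect drops KO 5, 4 genes were called and 0 of the 35, and Pgam1 was 0.0025, Eno2 8.8e-05, Ldha 0.044, Pfkfb3 0.14, Hif3a −0.10, Ankrd37 0.23 and Ddit4 −0.0077. The cause was not tested.

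Changes of sign, as log2 differences, were as follows. With the median in place of the 75th percentile Hk2 was 0.045, Pgk1 0.010, Pgam1 0.044, Ldha 0.032, Pfkfb3 0.026 and Egln3 0.027. With normexp Pgam1 was 0.0056 and Ldha 0.072. With the mean of a gene's probes Hk1 was −0.13, Pfkfb3 0.091 and Vegfa −0.0018. With slide as a fixed block Pgk1 was 0.058, Pgam1 0.027, Ldha 0.024 and Egln3 0.089, and with slide as a random block Aldoa was −1.2e-06. With the Y-linked level Pfkm was −0.076, Aldoa −0.023, Pgam1 0.034, Ldha 0.029, Pfkfb3 0.20, Hif1a −0.011, Hif3a −0.26, Ankrd37 0.050 and P4ha1 0.025. With array weights Hk2 was 0.13, Pfkm −0.096, Aldoa −0.15, Pfkfb4 −0.19 and Vegfa −0.048. Without KO 5 and WT 4 together Hk2 was 0.037, Pfkm −0.068, Aldoa −0.059, Pfkfb3 0.098, Pfkfb4 −0.025, Ankrd37 0.046 and Ddit4 −0.13. Leaving out 1 array at a time gave −0.088 to 0.074 for Aldoa, −0.52 to 0.23 for Ankrd37, −0.0077 to 0.19 for Ddit4, −0.10 to 0.025 for Egln3, −0.17 to 0.011 for Eno2, −0.037 to 0.39 for Hif1a, −0.10 to 0.65 for Hif3a, −0.088 to 0.099 for Hk2, −0.15 to 0.076 for Ldha, −0.090 to 0.14 for Pfkfb3, −0.13 to 0.19 for Pfkfb4, −0.071 to 0.12 for Pfkm, −0.088 to 0.055 for Pgam1, −0.26 to 0.059 for Pgk1 and −0.064 to 0.10 for Vegfa.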
